A study of Mus musculus with 2 samples.

Results

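The 42 genes described here are markers of dividing cells, 19 that work in DNA replication (called S genes below, after the S phase in which DNA is copied) and 23 that work in mitosis. They are a named list of genes known for these roles, and no measured value enters the rule, though the list was drawn up with earlier results of these data known. They stand among 19392 genes with at least 1 molecule in the kept cells. All 42 were found in both libraries. RNA molecules were counted in single cells that were sorted by flow cytometry for green fluorescence from mice carrying a Sox1-GFP knock-in reporter, in which the green protein reports on Sox1, a transcription factor of the early neural tube. The tail library holds Sox1-GFP+ cells from postnatal tails and the brain library holds Sox1-GFP+ cells from adult brains. Both tissues were cut up and dissociated with trypsin, and the sort is the sole treatment that the labels give for either group. There was 1 library per group, so no difference between tail and brain has a replicate check, no test was run, and tissue, age and library cannot be told apart.

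A cell was used if it showed over 200 but under 4000 genes and if less than 40% of its molecules were mitochondrial. This left 1964 tail cells with a median of 1282.5 molecules per cell and 7988 brain cells with a median of 696. Levels are given as CPM, molecules of a gene per 1000000 molecules of the cells in question, and every interval is a 95% interval that covers counting error only. A gene is called past 2-fold when the whole interval of its ratio lies beyond 2-fold and it has at least 50 molecules over the cells compared. Fewer dividing cells and less RNA per dividing cell cannot be told apart in a summed level. Of the broader lists, fibroblast and keratinocyte markers were higher in the tail library (9947 against 144 CPM for 5 fibroblast genes, 1104 against 7.94 CPM for 5 keratinocyte genes), while macrophage and oligodendrocyte markers stood at 14.6 and 17.0 CPM in tail and at 98.4 and 208 CPM in brain. The 2 endothelial markers stood at 25.9 CPM in tail and 0.467 CPM in brain.

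Before a cell copies its DNA, the Mcm2 to Mcm7 helicase is loaded onto replication origins and is then switched on with Cdc45 and the GINS complex, while Pcna clamps the polymerases to DNA and ribonucleotide reductase and thymidylate synthase supply the building blocks. Many of these genes are switched on by E2F factors late in the gap before S phase. Mitosis genes include the cyclin-dependent kinase Cdk1, its cyclins, the centromere proteins and the spindle motors. They are turned on later, in S phase and up to division, by the MuvB complex with B-Myb and Foxm1. This complex acts at a promoter element called CHR (cell cycle genes homology region), often beside CCAAT boxes bound by NF-Y. In the brain, most neural stem cells rest, whereas their transit-amplifying progeny and young neuroblasts divide.

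The promoters show how the 2 groups differ in sequence. RefSeq promoters (GRCm38.p6, 250 bases before to 50 bases after the start) were matched by symbol for 17 of the 19 S genes and 19 of the 23 mitosis genes. The counts below are of genes, and a gene counts if any of its promoters holds the match. Promoters on 1 chromosome were left out of all counts. Of the members, only the S genes Fen1, Mcm7 and Uhrf1 had more than 1 promoter, and so more than 1 chance of a match. A CHR (the letters TTTGAA, or the variant form TTTAAA, on either strand) was in 16 of 19 mitosis promoters (84.2%) and in 6 of 17 S promoters (35.3%), beside 30.6% of the 27025 genes with a promoter. The form TTTGAA alone was in 13 of 19 mitosis promoters (68.4%), in 3 of 17 S promoters (17.6%) and in 20.2% of all. A CCAAT box (CCAAT, either strand) was in 17 of 19 mitosis promoters (89.5%), in 11 of 17 S promoters (64.7%) and in 41.1% of all. Both were in 15 of 19 mitosis promoters (78.9%), 29.4% of S promoters and 12.2% of all. An E2F motif (TTTCGCGC, TTTGGCGC, TTTCCCGC or TTTGCCGC, on either strand, where matches on opposite strands can overlap, as 2 do in Mcm6) was in 6 of 17 S promoters (35.3%), in 1 of 19 mitosis promoters (5.26%, Cdk1) and in 2.61% of all.

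The promoters of 7 genes that the results below turn on are shown 5′ to 3′ on the strand of the gene, with every CHR, CCAAT and E2F match of either strand in capitals. A match on the other strand appears as its reverse complement, so that a CCAAT box can read ATTGG. They lie at chr10:69352863-69353162 (Cdk1, minus strand), chr11:99024140-99024439 (Top2a, minus), chr7:135716330-135716629 (Mki67, minus), chr11:117848987-117849286 (Birc5, plus), chr6:88898731-88899030 (Mcm2, minus), chr1:128359656-128359955 (Mcm6, minus) and chr12:24708004-24708303 (Rrm2, plus). Cdk1 holds all 3 kinds of match, Top2a and Mki67 hold CHR and CCAAT without E2F, and Birc5 holds 1 CHR, of the variant form, whose first base lies at position -220 from the start. Among the S genes, Mcm6 holds E2F matches and CCAAT boxes, while Mcm2 and Rrm2 hold a CHR and a CCAAT box. A match is a run of letters and not a shown binding site.
Cdk1: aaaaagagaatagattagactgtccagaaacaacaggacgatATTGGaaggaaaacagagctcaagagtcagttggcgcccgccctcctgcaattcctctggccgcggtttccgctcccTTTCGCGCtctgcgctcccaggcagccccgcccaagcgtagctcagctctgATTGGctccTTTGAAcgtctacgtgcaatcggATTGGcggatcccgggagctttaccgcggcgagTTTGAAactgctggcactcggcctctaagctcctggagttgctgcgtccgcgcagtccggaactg
Top2a: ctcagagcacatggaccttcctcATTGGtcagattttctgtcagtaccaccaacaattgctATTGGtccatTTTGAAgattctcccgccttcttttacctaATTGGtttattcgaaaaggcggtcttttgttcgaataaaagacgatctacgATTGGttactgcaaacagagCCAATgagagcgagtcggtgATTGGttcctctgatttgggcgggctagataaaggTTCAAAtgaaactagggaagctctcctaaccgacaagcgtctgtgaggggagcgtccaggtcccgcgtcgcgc
Mki67: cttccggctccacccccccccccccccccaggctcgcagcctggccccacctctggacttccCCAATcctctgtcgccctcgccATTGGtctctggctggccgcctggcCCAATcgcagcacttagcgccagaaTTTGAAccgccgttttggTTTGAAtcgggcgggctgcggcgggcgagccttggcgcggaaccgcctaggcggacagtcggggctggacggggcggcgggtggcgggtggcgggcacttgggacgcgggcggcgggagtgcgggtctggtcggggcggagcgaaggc
Birc5: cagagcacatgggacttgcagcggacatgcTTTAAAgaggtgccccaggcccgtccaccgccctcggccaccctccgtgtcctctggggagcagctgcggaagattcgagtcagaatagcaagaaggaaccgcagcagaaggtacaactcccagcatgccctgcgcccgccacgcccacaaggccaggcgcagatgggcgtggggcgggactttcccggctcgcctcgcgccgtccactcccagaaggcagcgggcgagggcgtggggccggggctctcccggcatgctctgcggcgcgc
Mcm2: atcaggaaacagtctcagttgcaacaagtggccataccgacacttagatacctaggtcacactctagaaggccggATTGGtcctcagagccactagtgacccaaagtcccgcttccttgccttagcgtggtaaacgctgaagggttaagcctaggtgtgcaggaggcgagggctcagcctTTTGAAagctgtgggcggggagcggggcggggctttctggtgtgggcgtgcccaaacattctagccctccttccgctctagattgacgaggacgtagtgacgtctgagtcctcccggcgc
Mcm6: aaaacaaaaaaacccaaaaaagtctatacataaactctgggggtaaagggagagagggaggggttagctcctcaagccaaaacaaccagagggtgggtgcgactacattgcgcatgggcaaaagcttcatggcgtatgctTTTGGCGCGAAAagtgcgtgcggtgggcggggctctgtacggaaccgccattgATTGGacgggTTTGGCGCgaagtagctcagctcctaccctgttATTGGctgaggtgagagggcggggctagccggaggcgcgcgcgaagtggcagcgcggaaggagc
Rrm2: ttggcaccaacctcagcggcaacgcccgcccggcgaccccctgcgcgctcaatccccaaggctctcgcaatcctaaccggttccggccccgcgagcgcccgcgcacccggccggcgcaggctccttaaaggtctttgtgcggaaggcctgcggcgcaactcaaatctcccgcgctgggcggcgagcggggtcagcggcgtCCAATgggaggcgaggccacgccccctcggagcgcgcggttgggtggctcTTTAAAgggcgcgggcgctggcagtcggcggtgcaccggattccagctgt

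Taken over all kept cells, both groups of genes stood higher in the tail library. The S genes summed to 783 CPM (751 to 816) in tail and 470 CPM (453 to 487) in brain, a ratio of 1.67 (1.58 to 1.76). The mitosis genes summed to 2275 CPM in tail and 1460 CPM in brain, a ratio of 1.56 (1.51 to 1.61). The median ratio was 1.56 over the S genes and 1.39 over the mitosis genes, beside 1.21 over all 11347 genes with enough molecules.

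These summed ratios depended on which cells were kept. With more than 500 genes per cell required, which kept 86.1% of tail cells but 36.5% of brain cells, the S ratio was 1.04 and the mitosis ratio was 0.935, with brain at 2510 CPM for mitosis genes. Under 20% mitochondrial molecules they were 1.39 and 1.26, and with the TMM scaling 1.28 and 1.19. Without cells that held a molecule of the keratin Krt5, the collagen Col1a1 or the cyclin Ccno, a choice made after the data were seen, they were 1.22 and 1.12. As a mean over cells they were 2.02 and 2.08.

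Among the replication genes, Mcm2, Gins2 and Slbp were past 2-fold higher in tail. Mcm2, a subunit of the replicative helicase (chr6:88883474-88898780, GRCm38), had 106 molecules in tail (37.6 CPM) and 81 in brain (12.6 CPM), a ratio of 2.98 (2.21 to 4.04). Gins2, a subunit of the GINS complex that completes the active helicase, had 48 and 22 molecules (17.0 and 3.42 CPM), a ratio of 4.98 (2.95 to 8.66). Slbp, which binds the stem-loop of histone messenger RNAs, had 188 and 173 molecules (66.7 and 26.9 CPM), a ratio of 2.48 (2.01 to 3.06). These 3 of 19 stand beside 13.2% of all genes called higher in tail by the same rule, and 0 of 19 stand beside 9.07% called higher in brain.

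The other helicase subunits lay between 1.40 (Mcm7) and 2.26 (Mcm4). Tyms, thymidylate synthase, was at 38.3 CPM in tail and 17.1 CPM in brain (ratio 2.24, 1.70 to 2.95). Rrm1, the large subunit of ribonucleotide reductase, was at 61.4 and 39.5 CPM (1.55). Rrm2, the small subunit of the same enzyme, was the exception at 44.4 CPM in tail and 61.2 CPM in brain, a ratio of 0.725 (0.588 to 0.889). It was the sole member with its whole interval under 1, and it stayed under 1 in all 12 alternatives (0.438 to 0.904). Among these 12, a minimum of 20 or of 200 molecules changes only the calls and cannot move a ratio. The interval lay wholly above 1 for 15 of 19 S genes and 17 of 23 mitosis genes, beside 45% of all genes above 1 and 22.3% below 1.

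Among the mitosis genes, Cdk1, Ccnb2 and Cks2 were past 2-fold higher in tail, 3 of 23 beside the same 13.2%. Cdk1, the kinase that drives entry into mitosis (chr10:69335146-69352938), had 306 molecules in tail (109 CPM) and 225 in brain (35.0 CPM), a ratio of 3.10 (2.60 to 3.70). Its activating cyclin Ccnb2 had 120 and 97 molecules (42.6 and 15.1 CPM), a ratio of 2.82 (2.14 to 3.73). Cks2, a small protein that binds the kinase, had 637 and 497 molecules (226 and 77.4 CPM), a ratio of 2.92 (2.60 to 3.29). The Cdk1 group also took in Cdc20, which activates the anaphase-promoting complex, at 42.6 and 17.3 CPM (2.47, 1.89 to 3.22, not past 2-fold).

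At the other end were Ube2c, the ubiquitin-conjugating enzyme of the same complex, at 87.7 CPM in tail and 94.02 CPM in brain (0.933, 0.801 to 1.08), and the checkpoint kinase Bub1 at 17.7 and 15.6 CPM (1.14, 0.795 to 1.62). The chromosome passenger proteins Birc5 and Aurkb were at ratios of 1.85 (1.54 to 2.21) and 1.35 (0.938 to 1.92), and the centromere proteins Cenpa, Cenpe and Cenpf lay between 1.31 and 1.64. The spindle motors Kif11 and Kif23 lay at 1.22 and 1.24, with intervals that took in 1. Mcm2, Gins2, Slbp, Cdk1, Ccnb2 and Cks2 stayed above 1 in each of the 12 alternatives, and their lowest ratios, between 1.68 and 2.88, came with more than 500 genes per cell required. In that setting none was past 2-fold and 10 of the 23 mitosis genes had whole intervals under 1. The share over all genes was not computed for that setting.

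**Figure D1:**
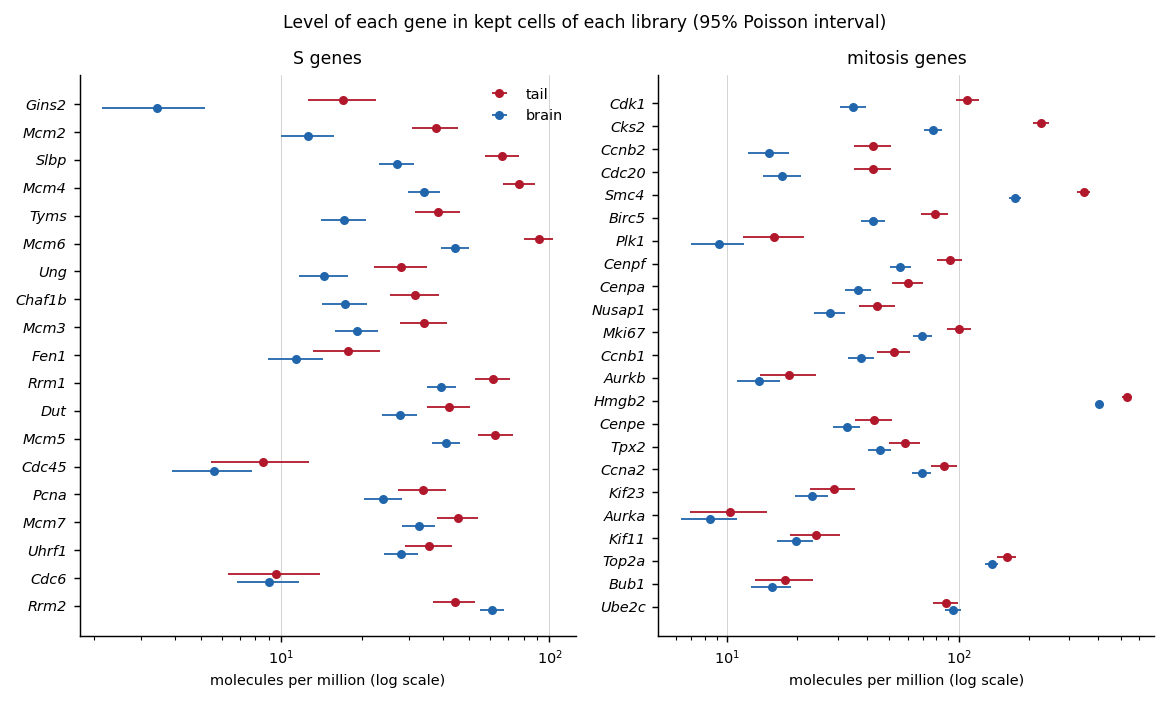
Level of each S gene (left) and mitosis gene (right) in kept cells, in CPM on a log scale, with tail in red and brain in blue and bars for the 95% Poisson interval. Genes are ordered by their tail over brain ratio, from Rrm2 (0.725) to Gins2 (4.98) on the left and from Ube2c (0.933) to Cdk1 (3.10) on the right, and 18 of 19 S genes and 22 of 23 mitosis genes lie higher in tail. With more than 500 genes per cell required, 10 and 8 do.

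Lists of 56 further replication genes and 67 further mitosis genes that are no members had median ratios of 1.47 and 1.41. Of the 47 replication genes with enough molecules, 2 were past 2-fold higher in tail, beside 13.2% of all genes, and 1 in brain, beside 9.07%. Higher in tail were the clamp loader Rfc5 (3.75) and the thymidine kinase Tk1 (3.77), while the ubiquitin ligase adaptor Dtl (2.69) missed by its lower bound of 1.99. Cdca7, which takes part in chromatin remodelling, was lower in tail at 28.0 CPM against 142 CPM in brain (0.197). Rad54l (0.629, 0.338 to 1.11) and Orc6 (1.12, 0.910 to 1.37) had the next lowest upper bounds, both with intervals that took in 1, and Orc6 lay higher in tail. Of the 63 mitosis genes with enough molecules, Nek2 (3.53), the tubulin Tuba1b (2.57) and Ckap2l (2.55) were past 2-fold higher in tail, beside 13.2% of all genes, and the citron kinase Cit was past it in brain (0.201), beside 9.07%. Stmn1 (0.746) and Psrc1 (0.565) had intervals wholly under 1 without being past 2-fold.

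Of 13 D cyclins, their kinases and inhibitors with enough molecules, 6 were past 2-fold higher in tail, beside 13.2% of all genes, and 1 in brain, beside 9.07%. Cyclin D1 (Ccnd1) was at 89.5 CPM in tail and 17.9 CPM in brain (4.997, 3.99 to 6.29), and cyclin D3 (Ccnd3) was at 253 and 55.6 CPM (4.55). Cyclin D2 (Ccnd2) ran the other way, at 341 CPM in tail and 1063 CPM in brain (0.321, 0.300 to 0.343). The kinase Cdk6 was at a ratio of 3.78. The inhibitor p57, gene Cdkn1c, was at 468 and 14.0 CPM (33.4, 27.0 to 41.9), p21 (Cdkn1a) was at a ratio of 2.86 and the antiproliferative Btg2 at 4.67. Cdk2 (1.996), Cdk4 (2.09), Cdkn3 (4.74, on 40 molecules and so not counted), Btg1 (1.14), Cdkn1b (0.699), Cdkn2c (0.824) and Cdkn2d (0.755) were not past 2-fold, and Cdkn2a and Cdkn2b had 2 or fewer molecules in each library.

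Of the 18 transcription factors and complex subunits that control these genes and had enough molecules, 1 was past 2-fold in tail, beside 13.2% of all genes, and 1 in brain, beside 9.07%. The repressor E2f8 was higher in tail at 14.2 CPM against 3.42 CPM (4.15, 2.41 to 7.33), and Mycn was higher in brain at 33.2 CPM against 9.58 CPM in tail (0.289). The median of this list was 1.09. The activators E2f1 (1.66), E2f2 (1.08) and E2f3 (0.827), the repressors E2f4 (1.12) and E2f7 (2.14), the partner Tfdp1 (1.96), Foxm1 (0.937), Mybl2 (0.540 on 47 molecules, not counted) and Myc (2.76) were not past 2-fold. The pocket proteins Rb1 (0.795), Rbl1 (1.70) and Rbl2 (0.622), and the MuvB subunits Lin9 (1.09), Lin37 (1.08), Lin52 (0.739), Lin54 (0.897) and Rbbp4 (1.57), were not either.

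Shares of cells were compared after each cell had been thinned at random to 400 molecules, which left out 19 tail cells and 718 brain cells that held fewer. At that depth 27.1% of tail cells and 10.7% of brain cells had at least 1 molecule of a mitosis gene, and 16.6% and 7.91% had one of an S gene. At least 2 different mitosis genes were found in 11.5% of the tail library (10.1 to 13.0) and 4.33% of the brain library (3.88 to 4.83), and at least 2 different S genes in 4.22% and 2.49%. Without thinning, 23.3% and 5.77% had at least 2 mitosis genes and 17.1% and 4.96% had at least 2 S genes. Cells with both at least 2 S genes and at least 2 mitosis genes made up 1.697% (1.17 to 2.37) in tail and 1.31% (1.06 to 1.595) in brain, intervals that overlap.

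Stray RNA can place a gene in cells that do not express it, and cells with an ependymal or a neuronal gene were looked at for that. Brain cells with the ependymal gene Tmem212 held 2 mitosis genes in 0 of 68 thinned cells, which allows up to 5.28% and so sets no limit below the share of the brain library. Tail cells with at least 2 molecules of the neuronal gene Stmn2 did so in 0 of 67, which allows up to 5.36%. Their unthinned median depths were 1274 and 1753 molecules, above their libraries' medians. Brain cells with at least 2 molecules of Stmn2 held 2 mitosis genes in 12.5% (9.84 to 15.6) of 535 thinned cells, above the library's share. At least 1 molecule of Stmn2 was also found in 877 of the 1482 brain cells with Dlx1, a neuroblast gene that went with high mitosis levels (below). The brain Stmn2 group is therefore no measure of stray RNA. With more than 500 genes per cell the shares with at least 2 mitosis genes were 12.2% in tail and 9.65% in brain. Without the cells holding Krt5, Col1a1 or Ccno the tail share was 7.95%.

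The brain library was split sharply by its markers. Cells with Dlx1, a homeobox gene of interneuron precursors and neuroblasts, numbered 1482 (18.6% of brain cells) and held 5530 CPM of mitosis genes against 462 CPM in all other brain cells, a ratio of 12.0 (11.4 to 12.5). For cells with Dlx1 and no other of the 6 markers over all other brain cells, that ratio was 4.988 (4.78 to 5.20). The comparison cells then took in Dlx1+ cells with a second marker. The S genes of all Dlx1+ cells were at 1448 against 230 CPM, a ratio of 6.31 (5.86 to 6.79). The other 4 neuroblast markers were 13.6-fold higher in these cells, with all 4 of them higher. All 23 mitosis genes and 16 of the 17 S genes with enough molecules were past 2-fold higher, beside 17.9% of the 9811 genes tested in brain. Groups marked by different genes overlap, since 1486 of 7988 brain cells and 865 of 1964 tail cells held at least 2 of the 6 markers.

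Within the Dlx1+ brain cells the mitosis genes led. Cenpe, the motor that moves chromosomes to the spindle equator, was at 136 against 7.56 CPM (ratio 18.0), and Mki67, which coats mitotic chromosomes, was at 280 against 18.0 CPM (15.5). Rrm2 was at 215 against 23.5 CPM (9.16) and Mcm2 at 45.8 against 4.46 CPM (10.3). Slbp, at 54.5 against 20.2 CPM (2.705, 1.97 to 3.70), was the S gene not past 2-fold. Gins2 and Cdc45 had too few brain molecules to be counted.

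Brain cells with Slc1a3, the glutamate transporter of astroglia and radial glia, showed the reverse. They numbered 5659 (70.8%), and their mitosis genes were at 593 CPM against 3820 CPM in brain cells without it, a ratio of 0.155 (0.149 to 0.162), while their S genes were at 262 against 1035 CPM (0.253). The mitosis ratio was 0.0972 when 2 molecules of Slc1a3 were required and 0.0546 when each cell was given its strongest marker. It was 0.0633 for cells with Slc1a3 and no other marker over all other brain cells. The other 5 astroglial markers were 7.15-fold higher in Slc1a3+ cells as a whole. All 23 mitosis genes and 13 of 17 S genes were past 2-fold lower, beside 17.7% of all genes. The mitosis genes lay in a narrow band, from Aurka, the centrosome kinase (0.117), to Ccnb2 (0.198). The 4 S genes that were not past 2-fold were Mcm3 (0.350), Cdc6 (0.343), Ung (0.345) and Slbp (0.427).

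Brain cells with Igfbp5, a secreted binding protein of insulin-like growth factors, were few (1181, 14.8%) and stood higher for both groups. Their mitosis genes were at 3140 against 1086 CPM (2.89, 2.77 to 3.01) and their S genes at 1097 against 330 CPM (3.32, 3.09 to 3.57). Of the members, 11 S and 17 mitosis genes were past 2-fold higher, beside 1.19% of all genes, led by Mcm5 at 130 against 21.5 CPM (6.04). The other 3 genes of the Igfbp5 list were 1.58-fold higher in these cells.

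Ependymal-marked and collagen-marked brain cells were low. The 69 brain cells with Tmem212, a gene of ciliated ependyma, had 15 molecules of S genes and 15 of mitosis genes (163 CPM each), and 29 of the 42 members had none. The mitosis level was 0.110 of that in other brain cells, 0.0606 with more than 500 genes per cell and 0.0399 without the widely used genes. Top2a and Ube2c had no molecule there, at least 4.31-fold and 2.92-fold lower than in other cells against a floor of 3 molecules, and with Hmgb2 (6 molecules, 65.4 against 406 CPM) they were the 3 past 2-fold lower, beside 2.74% of all genes. The 379 brain cells with Col1a1 had 116 CPM of S genes and 326 CPM of mitosis genes (0.215), and 347 of them also held Slc1a3. Of the members, 13 were past 2-fold lower, beside 2.35%. The other 4 fibroblast markers in these brain cells reached only 354 CPM, against 32508 CPM in tail cells with Col1a1. No brain cell had Krt5.

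The 1378 tail cells with Igfbp5 (70.2%) held 2446 CPM of mitosis genes against 1936 CPM in the rest (1.26, 1.20 to 1.34), and 739 CPM of S genes against 870 CPM (0.850, 0.779 to 0.928). The 753 with Slc1a3, of which 698 also held Igfbp5, had 2687 against 2037 CPM of mitosis genes (1.32, 1.26 to 1.39) and 764 against 794 CPM of S genes (0.962). In Slc1a3+ cells 0 of 37 counted members were past 2-fold higher (beside 1.63% of the 8236 genes tested in tail) and 0 lower (beside 4.29%). In Igfbp5+ cells 0 were higher (beside 4.04%) and 0 lower (beside 3.85%). The centromere protein Cenpf came nearest, at 115 against 45.4 CPM with Igfbp5 (2.53, 1.82 to 3.60). The Igfbp5 ratio for mitosis genes turned to 0.859 when each cell was given the marker with the most molecules. It was 0.688 for cells with Igfbp5 and no other of the 6 markers over all other tail cells. The comparison cells then took in Igfbp5+ cells with a second marker, such as the 698 with Slc1a3.

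Skin and connective tissue markers went with higher levels. The 91 tail cells with Krt5, a keratin of basal epidermis, held 4486 CPM of mitosis genes against 2108 CPM (2.13, 1.98 to 2.28) and 1995 CPM of S genes against 691 CPM (2.89, 2.58 to 3.22). They held 159-fold more of the other 4 keratinocyte markers. Of the members, 4 S genes (Uhrf1 at 6.52, Ung at 5.77, Mcm5 at 3.99 and Mcm6 at 3.20) and 4 mitosis genes (Aurkb at 5.36, Cenpa at 3.46, Birc5 at 3.36 and Ube2c at 3.11) were past 2-fold higher, beside 2.87% of all genes. Uhrf1, which carries DNA methylation over to the new strand, was at 167 against 25.6 CPM.

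The 210 tail cells with Col1a1, the chain of collagen that marks fibroblasts, held 2940 against 2146 CPM of mitosis genes (1.37) and 1183 against 706 CPM of S genes (1.68, 1.52 to 1.85), and Birc5 (199 against 55.5 CPM, 3.58) was the 1 member past 2-fold higher, beside 4.46%. The Col1a1 ratio for mitosis genes was 0.743 for cells with Col1a1 and no other of the 6 markers over all other tail cells. The comparison cells then took in Col1a1+ cells with a second marker, such as the 118 with Igfbp5. The median depth was 2081 molecules in Krt5+ and 1869.5 in Col1a1+ cells, against 1262 and 1240.5 in the others, and its part in these levels was not tested. The 1 tail cell with Dlx1 is not compared.

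Tail cells with Tmem212, 69 in number as in brain, differed from their brain counterparts. They held 2286 CPM of mitosis genes, 1.01 times the level of other tail cells (0.891 to 1.13), and 360 CPM of S genes against 803 CPM (0.448). Cyclin A2 (Ccna2), with 1 molecule against 89.98 CPM in other tail cells (0.0870, 0.00219 to 0.489), was the 1 member past 2-fold lower, beside 1.89%. Cdc20, Cdk1 and Top2a stood above 1 in the same cells, at 2.56 (1.32 to 4.56), 1.71 (1.07 to 2.62) and 1.597 (1.08 to 2.29).

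**Figure D2:**
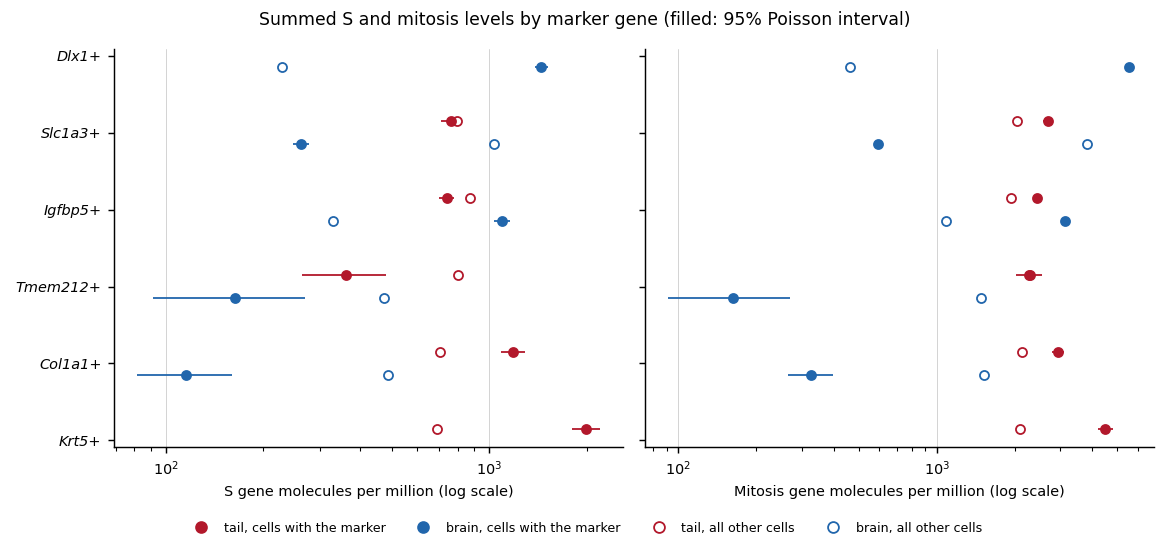
Summed level of the S genes (left) and mitosis genes (right) in cells with at least 1 molecule of each marker gene (filled points, bars for the 95% Poisson interval) and in all other cells of the same library (open points), tail in red and brain in blue, in CPM on a log scale. In brain, Dlx1+ cells reach 5530 for mitosis genes and Tmem212+ cells 163, while the tail groups stay between 2286 and 4486.

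**Figure D3:**
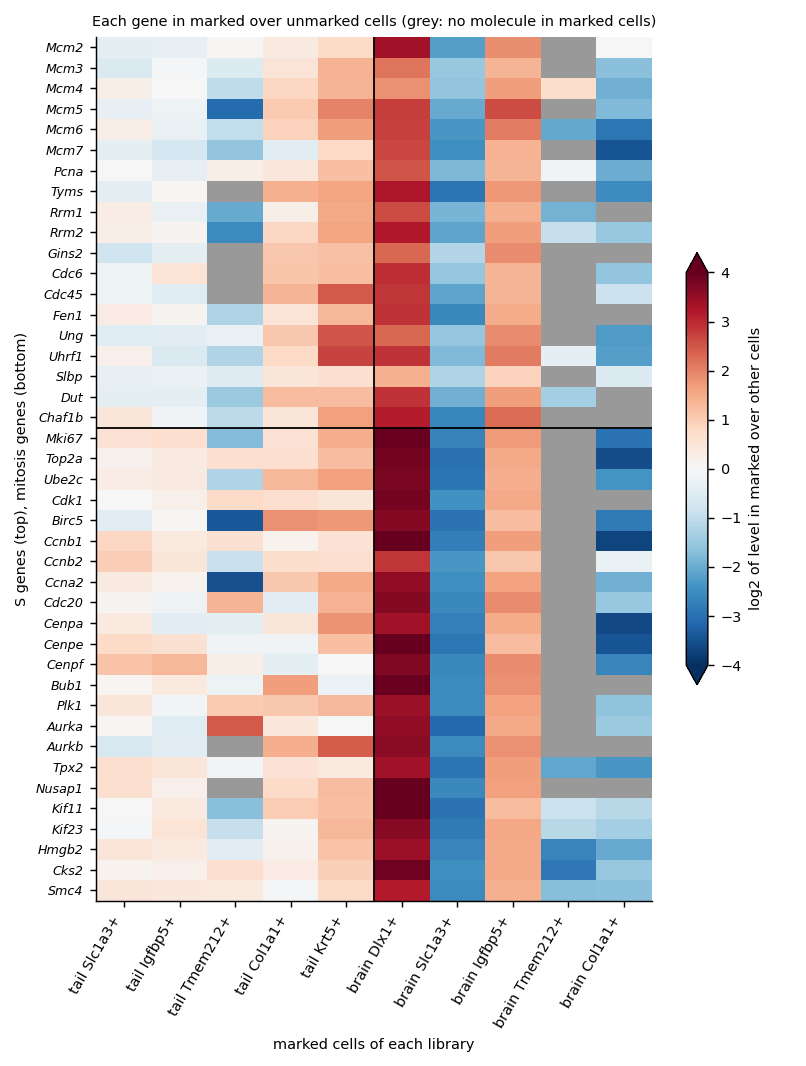
Log2 of the level of each of the 42 genes in marked over unmarked cells, S genes above and mitosis genes below the black line, tail groups left and brain groups right of the vertical line. Red is higher and blue lower in marked cells, and grey marks a gene with no molecule in the marked cells, as for 29 genes in brain Tmem212+ cells. The brain Dlx1+ column is red and the brain Slc1a3+ column blue for every gene, while the tail Slc1a3+ and Igfbp5+ columns mix both colours.

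To see which cells carried the genes, a cell was called mitosis-positive when it had at least 3 different mitosis genes, which 321 tail cells (16.3%) and 331 brain cells (4.14%) did. Leaving out the 3 widely used genes Hmgb2, Cks2 and Smc4, these cells held 94.1% of the mitosis molecules in tail and 95.8% in brain. Since the cells were chosen by the same genes, these shares are in large part set by the choice. Mitosis-positive cells held 52.9% of the S molecules in tail and 58.4% in brain. They were deeper than other cells, with a median of 1872 against 1218 molecules in tail and 1454 against 681 in brain.

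In brain, 71.3% (66.1 to 76.1) of mitosis-positive cells held Dlx1 against 16.3% of other cells, 40.5% held Igfbp5 against 13.7%, and 28.7% held Slc1a3 against 72.7%. None of 331 held Tmem212, which allows up to 1.11% by the exact interval. In tail, the shares with Igfbp5 (67.0% against 70.8%) and Slc1a3 (41.7% against 37.7%) had overlapping intervals. Krt5 was in 13.4% (9.87 to 17.6) of mitosis-positive tail cells against 2.92% of the others and Tmem212 in 7.48% (4.85 to 10.9) against 2.74%, while Col1a1 was in 14.6% against 9.92%, with intervals that overlap. After thinning to 400 molecules, with at least 2 mitosis genes required, Krt5 was still in 11.2% against 3.02% of tail cells, while Tmem212 was in 1.79% against 1.45% and Col1a1 in 12.5% against 9.18%, both with overlapping intervals. Slc1a3 was then in 14.7% against 19.7%, the other way round than before thinning and again with overlapping intervals. Igfbp5 was then less frequent in the cells with mitosis genes, at 54.0% (47.3 to 60.7) against 63.7% (61.4 to 65.96). In brain Dlx1 was then in 47.9% against 12.3%.

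Each member was then set against the rest by comparing its level in cells with at least 3 other mitosis genes with its level in cells with none, leaving the gene itself out of the choice of cells. All 23 mitosis genes had intervals above 1 in both libraries, with median ratios of 50.9 in tail and 345 in brain. The S genes had median ratios of 6.19 in tail and 41.2 in brain. The origin factor Cdc6 in tail had 25 molecules beside other mitosis genes and 0 in 1012 cells without (at least 15.3-fold higher), and Plk1 and Aurkb likewise had none there. Rrm2 had 107 molecules against 7 in tail (28.0) and 308 against 30 in brain (103).

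The lowest ratios were those of the helicase genes Mcm7 and Mcm2 in tail. Mcm2 had 32 molecules in the 321 mitosis-positive tail cells (47.4 CPM) and 35 in the 1012 tail cells with no mitosis gene (28.3 CPM), a ratio of 1.67 (1.004 to 2.79). In brain it had 52 molecules in 331 cells (101.3 CPM) and 3 in 6827 cells (0.583 CPM), a ratio of 174 (56.3 to 870). Mcm7 was at 1.41 (0.890 to 2.21) in tail and 10.9 (7.96 to 14.9) in brain. Of the 38 members with a ratio in both libraries, all 38 were higher in brain, 20 of them with intervals that do not meet. No share over all genes was computed for this count, so it is not read as a trait of the members. Both sets of cells were chosen on unthinned counts in libraries of unlike depth, and the part of that choice was not tested. After thinning, cells with at least 2 mitosis genes were set against cells with none. Mcm2 was then at 44.6 against 22.9 CPM in tail (4 and 13 molecules) and at 79.4 against 2.31 CPM in brain (10 and 6 molecules).

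**Figure D4:**
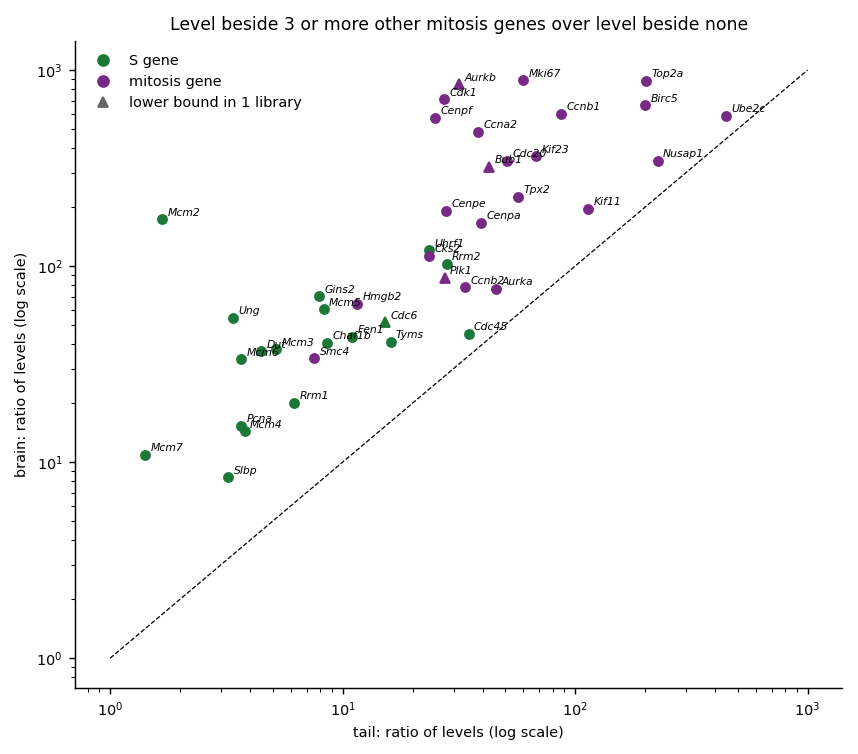
Level of each gene in cells with at least 3 other mitosis genes over its level in cells with none, tail on the horizontal and brain on the vertical axis, both on log scales, with S genes in green and mitosis genes in purple. Triangles are genes with no molecule in the second set of cells in 1 library, drawn at their lower bound, and the dashed line marks equal ratios. All 38 genes with both ratios lie above the line, and Mcm2 lies farthest to the left but one, at 1.67 in tail and 174 in brain.

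In cells with no mitosis gene, the S genes were at 334 CPM in 1012 tail cells and 113 CPM in 6827 brain cells, a ratio of 2.95 (2.60 to 3.36), and 2.71 (2.29 to 3.20) after thinning. Mcm2 in these cells was at 28.3 against 0.583 CPM (48.6, 15.3 to 247, on 35 and 3 molecules), and after thinning at 22.9 against 2.31 CPM (9.92, 3.52 to 31.8). The uracil glycosylase Ung was at 16.2 against 1.75 CPM (9.25, 4.03 to 23.1), and at a ratio of 3.33 (1.16 to 9.09) after thinning. Mcm6 was at 41.3 against 9.14 CPM (4.52), and at 3.76 after thinning. Rrm2 was at 5.66 against 5.83 CPM (0.971), and at 0.704 after thinning, with intervals that took in 1. In mitosis-positive cells the S genes were at 1730 CPM in tail and 3433 CPM in brain (0.504) and the mitosis genes at 8139 and 16124 CPM (0.505). These cells were chosen by a number of mitosis genes, which asks for a higher CPM in a shallower cell, and the brain cells were the shallower ones, so the mitosis ratio is in part set by the choice and is given as a description. After thinning, where at least 2 mitosis genes were required, these ratios were 0.484 (0.393 to 0.592) and 0.715 (0.663 to 0.770).

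Gene by gene, only some of these ratios were alike at both depths. Rrm2 was at 159 against 600 CPM in mitosis-positive cells (0.264, 0.210 to 0.330) and at a ratio of 0.281 (0.142 to 0.515) after thinning. Top2a was at 657 against 1699 CPM (0.387) and at 0.425 (0.316 to 0.564), Ube2c at 0.320 and 0.412, Mcm7 at 0.320 and 0.281, and Dut at 0.384 and 0.363. Bub1 was at 0.377 (0.261 to 0.537) before thinning, whereas its thinned interval took in 1 (0.673, 0.296 to 1.44). The lowest ratio after thinning was that of Aurka (0.141, on 1 and 10 molecules), followed by Mcm3 (0.234, on 3 and 18 molecules).

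Cdk1 was at 396 against 415 CPM (0.954, 0.794 to 1.15) and at 1.32 (0.863 to 2.02) after thinning. Ccnb2 was at 0.982 and then 2.01 (0.965 to 4.30), Cks2 at 0.935 and 1.26 (0.945 to 1.68), Cdc20 at 0.834 and 1.58 (0.879 to 2.86), and Slbp at 1.01 and 0.615 (0.214 to 1.58). All of these intervals took in 1 at both depths, as did those of Gins2, Tyms, Cdc6, Chaf1b and Plk1.

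The 10 genes outside the list that went most strongly with mitosis-positive cells, by the lower bound of their ratio over cells with no mitosis gene, were in the main other genes of dividing cells. In brain they were Spc25, Pbk, Prc1, Pclaf, Knl1, Melk, Ckap2l, Hmmr, Ndc80 and Ncapg, which include kinetochore subunits, the midzone protein Prc1, the condensin subunit Ncapg and the Pcna-binding Pclaf. Spc25, a kinetochore subunit, had 180 molecules in mitosis-positive and 1 in mitosis-free brain cells. In tail they were Pclaf (294 against 3 molecules), Spink1, Pbk, Lypd8, Spc25, Nuf2, Anln, Prc1, Ccno and Hmmr. Spink1 and Lypd8 came from 2 cells each, with 119 and 74 of their molecules in 1 cell.

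Ccno in that list encodes cyclin O, known for its part in the formation of multiciliated cells, and is in no gene list used here. It had 195 molecules in 88 tail cells and 1 molecule in brain. The cells with Ccno were singled out after these values had been seen, so what follows is a description. Of the 88, 71 were mitosis-positive (80.7%), 73 held Foxj1, the master regulator of motile cilia, and 16 held Tmem212. The 5 ependymal markers together, Foxj1 and Tmem212 among them, were 7.73-fold higher than in other tail cells. Leaving the Ccno+ cells out, the tail Tmem212 ratio for mitosis genes went from 1.01 to 0.580. The 16 Tmem212+ cells with Ccno held 4533 CPM of mitosis genes and the 53 without it held 1248 CPM.

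The Ccno+ cells carried a partial set of the mitosis genes. Against all other tail cells, Cdc20 (5.57), Cdk1 (4.42), Cks2 (4.2005), Top2a (3.74) and Smc4 (3.41) were past 2-fold higher, beside 4.95% of all genes, and Mcm6 was past 2-fold lower (0.131, on 2 molecules), beside 3.08%. Set against the 250 other mitosis-positive tail cells, the same 5 lay closer together. Cdk1 was at 402 against 382 CPM (1.05, 0.782 to 1.3995), Cks2 at 804 against 811 CPM (0.992) and Smc4 at 1037 against 977 CPM (1.06). Cdc20 was at 189 against 157 CPM (1.20, 0.766 to 1.85) and Top2a at 522 against 675 CPM (0.773, 0.601 to 0.983).

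Most other mitosis genes were low in them. The intervals of Aurka (1.78, 0.701 to 4.23), Ccnb1 (0.641, 0.391 to 1.01) and Plk1 (0.421, 0.130 to 1.07) took in 1. Mki67 had 7 molecules, 44.0 CPM against 479 CPM in the other mitosis-positive cells (0.0918, 0.0365 to 0.192). Ccna2 had 3 molecules (18.9 against 420 CPM, 0.0449), Birc5 had 4 (25.1 against 403 CPM, 0.0624) and the spindle protein Nusap1 had 1 (6.28 against 229 CPM, 0.0274). Aurkb had 0 molecules against 52, at least 5.14-fold lower with the floor of 3 molecules. In shares of cells, Mki67 was in 6.82% of Ccno+ and 52.8% of the other mitosis-positive cells, whereas Top2a was in 44 of 88 and in 49.6%.

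The S genes were low as well, at 490 CPM against 2060 CPM, with a mitosis to S ratio of 9.81 (7.76 to 12.5) against 4.30 (4.03 to 4.60). Mcm5, Tyms and Uhrf1 had 1 molecule each and Ung none, while Slbp (126 against 131 CPM) did not stand apart. The comparison cells were chosen by their mitosis genes and the Ccno+ cells by Ccno. Restricted to the 71 Ccno+ cells that were mitosis-positive too, the ratios were like those, with Cdk1 at 1.17 (0.868 to 1.57), Top2a at 0.868 (0.673 to 1.11), Mki67 at 0.106 (0.0421 to 0.221) and Ccna2 at 0.0517 (0.0106 to 0.153). The median depth was 1738.5 molecules in Ccno+ cells and 1874.5 in the comparison cells.

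**Figure D5:**
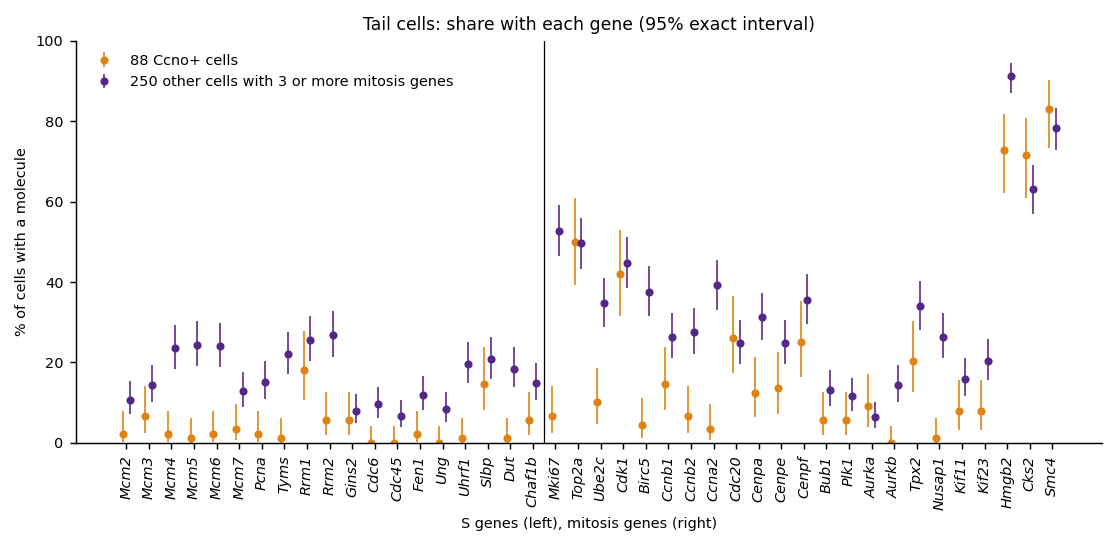
Share of tail cells with at least 1 molecule of each gene, with bars for the 95% exact interval, in the 88 cells with Ccno (orange) and in the 250 other tail cells with at least 3 mitosis genes (purple), S genes left and mitosis genes right of the line. Top2a (44 of 88 cells and 49.6%) and Cdk1 (42.05% and 44.8%) lie together, while Mki67 (6.82% and 52.8%) and Ccna2 (3.41% and 39.2%) lie apart.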

How the data were processed

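The authors deposited whole-number molecule counts per gene and cell, which per the file headers came from the BD Rhapsody WTA Analysis Pipeline 1.10.1 with GRCm38, GENCODE vM19 and error correction of molecular identifiers. The submitters' processing notes also name STAR 2.7.1a, featureCounts 1.6.4, UMI-tools 1.0.1 and mm10, with no role given. Error-corrected counts were used here, with 0 columns left unmapped. Barcodes numbered 2469 (tail) and 12111 (brain), and 18 cell indexes occurred in both libraries. Kept cells held 2817103 and 6424466 molecules. Counts were summed over cells, divided by the total and given exact Poisson, Clopper-Pearson or conditional binomial intervals (Python 3.11.15, numpy 2.4.6, scipy 1.17.1, pandas 2.3.3). Cells are not replicates, so no test was run. Scrublet (scanpy 1.11.5) marked 5 and 76 cells as doublets (0.255% and 0.951%), and they were kept in the values reported. The TMM scaling used edgeR 4.0.16 in R 4.3.3. Plots used matplotlib 3.10.9. Gene positions are from GENCODE on GRCm38 and promoters from RefSeq. The scripts were tested on simulated data. Named were all members, the regulators, the D cyclins and inhibitors, the 3 most extreme genes each way of the other lists and the 10 non-members most tied to mitosis-positive cells. The members and lists were chosen with earlier results of these data known. Alternatives covered cell filters, scaling, thinning depth, marker rule and gene lists.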

Additional observations from a re-analysis of the deposited data

Results flagged for a closer look

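In 4 comparisons the same marker went with higher levels in one library and with lower levels in the other. Mitosis genes stood at 1.32 times the level of unmarked cells in tail cells with Slc1a3 and at 0.155 in brain cells with Slc1a3. The other 5 astroglial markers were at 324 CPM in those tail cells and at 21344 CPM in those brain cells, so the marker does not pick out like cells. S genes stood at 0.850 in tail cells with Igfbp5 and at 3.32 in brain cells with Igfbp5, where the other 3 genes of the Igfbp5 list were at 4822 CPM and 374 CPM. S genes stood at 1.68 in tail cells with Col1a1 and at 0.238 in brain cells with Col1a1, and mitosis genes at 1.37 and 0.215. For tail cells with Col1a1 and no other of the 6 markers over all other tail cells, the mitosis value was 0.743. Those other cells took in Col1a1+ cells with a second marker, so 0.743 and 1.37 are not like comparisons. Of the 379 brain cells with Col1a1, 347 also held Slc1a3. With 1 library per tissue, the difference between the libraries was not tested.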

How the results depend on the processing

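With 1 library per group no replicate could be left out, and no paired analysis was possible because the groups share fewer than 2 replicate numbers. The summed levels, calls and shares were recomputed under 23 settings. The share of all genes past 2-fold was computed for the main setting only, so counts of calls under other settings stand without it. No gene past 2-fold changed direction. Single-gene ratios were counted together with summed S ratios and summed levels of marked cells. Of these values, 755 moved by less than their interval and 256 by more. The 755 include 42 values at a minimum of 20 molecules and 42 at 200, which that minimum cannot move. For 4 genes no ratio could be formed, since no molecule lay in cells without another mitosis gene (Cdc6, Plk1 and Aurkb in tail, Bub1 in brain). The cause of the shifts below was not tested. Uncorrected molecules, a minimum of 20 molecules, another seed, 2 other mitosis genes and 4 different mitosis genes moved no summary value.

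The summed S ratio of tail over brain was 1.39 under 20% mitochondrial, 1.04 with more than 500 genes, 1.28 with TMM, 1.29 with the median ratio scaling, 2.02 as a mean over cells and 1.22 without Krt5+, Col1a1+ or Ccno+ cells. In the same order the mitosis ratio was 1.26 (1.255), 0.935, which is reversed, 1.19, 1.21, 2.08 and 1.12, and it was 1.45 both without the 6 broad genes (1.4525) and without Ccno+ tail cells (1.4538). The last 2 exclusions of cells were chosen after seeing the data. Called higher in tail were 1 S gene under 20% mitochondrial, with TMM, with the median ratio and with a minimum of 200 molecules, and 0 with more than 500 genes and without Krt5+, Col1a1+ or Ccno+ cells. Called mitosis genes were 0 with TMM, with more than 500 genes and without those cells. Of the other lists, replication genes called were 1 under 20% mitochondrial and with TMM and 0 with the minimum of 200, mitosis genes 0 with TMM and the median ratio, and regulators 0 under 20% mitochondrial, TMM, the median ratio and the minimum of 200.

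For at least 2 mitosis genes the tail share was 7.04% with 3 different genes, 6.63% without broad genes, 23.3% unthinned, 9.93% thinned to 300 and 14.8% to 600, 9.80% (9.8008) without Ccno+ and 7.95% without Krt5+, Col1a1+ or Ccno+ cells. The brain share was 3.16% with 3 genes, 3.03% without broad genes, 5.77% unthinned, 3.62% at 300, 6.84% at 600, 5.49% under 20% mitochondrial and 9.65% with more than 500 genes. For S genes the tail share was 1.29% (1.2853) with 3 genes, 3.24% without broad genes, 17.1% unthinned, 6.89% at 600 and 2.88% without Krt5+, Col1a1+ or Ccno+ cells, and the brain share 1.21%, 2.13%, 4.96% unthinned, 1.49% (1.494) at 300, 4.65% at 600 and 5.46% with more than 500 genes. For at least 1 mitosis gene tail and brain were at 48.5% and 14.5% unthinned, 23.5% and 8.47% at 300, and 34.8% and 14.6% at 600, and for at least 1 S gene at 38.95% and 12.5%, 14.5% (14.46) and 6.23%, and 24.002% and 12.6%.

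For mitosis genes in brain, the Dlx1 ratio was 9.52 under 20% mitochondrial, 9.398 with more than 500 genes, 12.7 without doublets, 11.1 (11.08) without mitochondrial totals, 13.3 without broad genes, 10.7 at 2 molecules of the marker, 4.988 with only 1 marker and 9.17 by the strongest marker. The Slc1a3 ratio was 0.183, 0.17 (0.16997), 0.148 (0.14809), 0.165, 0.148 (0.14789), 0.0972, 0.0633 and 0.0546 in the same order. The Igfbp5 ratio was 2.51, 2.03 with more than 500 genes, 3.55 at 2 molecules, 3.67 with 1 marker and 3.83 by the strongest. Tmem212 was at 0.0606 with more than 500 genes and 0.0399 without broad genes, where Col1a1 was at 0.164. In tail, Igfbp5 was at 1.35 (1.3456) under 20% mitochondrial, where 1 member was past 2-fold, 1.16 (1.164) at 2 molecules, 1.42 without Ccno+ cells, and reversed at 0.688 with only 1 marker and 0.859 by the strongest. Col1a1 was at 1.64 without broad genes, 1.51 without Ccno+ cells and reversed at 0.743 with only 1 marker. Krt5 was at 1.71 with only 1 marker and 2.32 without Ccno+ cells, Slc1a3 at 1.21 (1.208) at 2 molecules and 1.43 without Ccno+ cells, and Tmem212 at 0.580 without Ccno+ cells. With a minimum of 200 molecules, past 2-fold were 20 members in brain Dlx1+, 20 in Slc1a3+ and 17 in Igfbp5+ cells and 3 in tail Krt5+ cells. With 2 molecules of a marker required, mitosis-positive brain cells held Dlx1 in 57.1%, Igfbp5 in 22.4%, Slc1a3 in 12.1% and Col1a1 in 0%, and tail cells held Igfbp5 in 57.6%, Slc1a3 in 21.5% and Tmem212 in 2.80% (2.8037).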
